A study of Mus musculus with 6 samples.

Results

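Long intergenic noncoding RNAs (lincRNAs) with many counts in the mouse heart were compared between animals whose Na/K-ATPase α1 has a high or a low affinity for cardiotonic steroids (CTS). The genes were chosen by measured level: the deposited table had to give the biotype lincRNA, a chromosome other than X, Y or the mitochondrial one, and at least 600 counts summed over 6 hearts. This took 69 genes of 54532 in the table, of 5559 listed as lincRNA and of 4915 lincRNAs off the sex and mitochondrial chromosomes. Genotype played no part in this choice, so the levels are a description of what was chosen, and the difference between genotypes is what was tested. All 69 passed the filter on low counts and were tested, against 387 of the 4915.

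RNA was sequenced from hearts of 3-month-old male mice on a C57BL/6 background, 3 hearts of each genotype. Resistant mice (genotype α1 r/rα2 s/s, littermate controls) carry the natural rodent α1, which binds CTS with low affinity. Sensitive mice (genotype α1 s/sα2 s/s) carry substitutions that give α1 a high affinity for CTS in every cell that makes it, and both genotypes share the naturally sensitive α2. The labels describe the material as whole heart mRNA, and the comparison asks which cardiac RNAs differ in level when α1 can bind CTS with high affinity.

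The total count was 20240817, 19710942 and 20165386 in the resistant hearts. In the sensitive hearts it was 20470065, 19309312 and 20427506. Log2 fold changes are of sensitive over resistant hearts, and positive values are higher in sensitive hearts. Levels of 1 gene are given as CPM, the count scaled by TMM factors to a common library size, and levels of different genes are compared as the same quantity per kilobase of gene length (RPKM).

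A lincRNA is transcribed by RNA polymerase II from a locus of its own between protein-coding genes, is usually capped, spliced and polyadenylated, and is not known to encode a protein. Some stay in the nucleus as parts of nuclear bodies or act on the locus they come from, while others reach the cytoplasm and bind proteins or microRNAs. In the heart, lincRNAs have been tied to lineage commitment, to chromatin control of myosin genes and to the stress response, and many are made in only some of its cell types.

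No lincRNA of the 69 passed edgeR's test at an adjusted p under 0.05, while 10 did at an unadjusted p under 0.05 and 1, Gm36827, by DESeq2. Over all genes, edgeR called 1.44% (214 of 14866), 14.5% had an unadjusted p under 0.05 (2150), and DESeq2 called 3.89% (409 of 10520). Leaving out resistant replicate 1 or 2 gave 80 and 91 edgeR calls over all genes, and leaving out sensitive replicate 1, 2 or 3 gave 135, 123 and 102. The 10 lincRNAs are 14.5% of the 69, the same share as over all genes. Of these, 4 were higher in sensitive hearts, against a background of 7.19% of all genes, and 6 were lower, against 7.27%. Without sensitive replicate 1, edgeR called 1 of the 69, again Gm36827.

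Groups that did not overlap were as frequent among the lincRNAs as among all genes. All 3 hearts of one genotype lay above all 3 of the other in 14 of the 69 (20.3%), against 20% of all tested genes (2972). In 5 of them, Norad, A430046D13Rik, AC133498.1, Gm12295 and 9330158H04Rik, the sensitive hearts were the higher ones, against 10% of all genes (1488). In the other 9 (Gm36827, Neat1, Tmem250-ps, Fam120aos, AC129328.1, 4632404H12Rik, Gm21781, C030037D09Rik and Meg3) they were the lower ones, against 9.98% (1484). With 3 hearts in each group an exact permutation test cannot give a p under 0.1, and the edgeR p measures a difference against the spread between these hearts alone.

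The fitted log2 fold changes of the 69 ran from −0.49 to 0.45, with a median of −0.011 beside −0.0078 over all tested genes. They lay above 0 in 31 lincRNAs and below 0 in 38, and none had a size over 0.5. The median was above 0 without resistant replicate 1 (0.024) or without sensitive replicate 2 (0.0099), and over the 37 that overlapped no other gene (0.0018). Standard errors ran from 0.07 to 0.24, with a median of 0.08 for the 5 lincRNAs with the most counts and 0.21 for the 5 with the fewest. The median biological coefficient of variation, as fitted by edgeR, was 12.5% for the lincRNAs, 11.0% for all tested genes and 8.88% for autosomal protein-coding genes with at least 600 counts. These sets were not matched in level, with median counts of 1234 for the lincRNAs and 3226 for those protein-coding genes. The part of level in this difference was not tested.

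**Figure D1:**
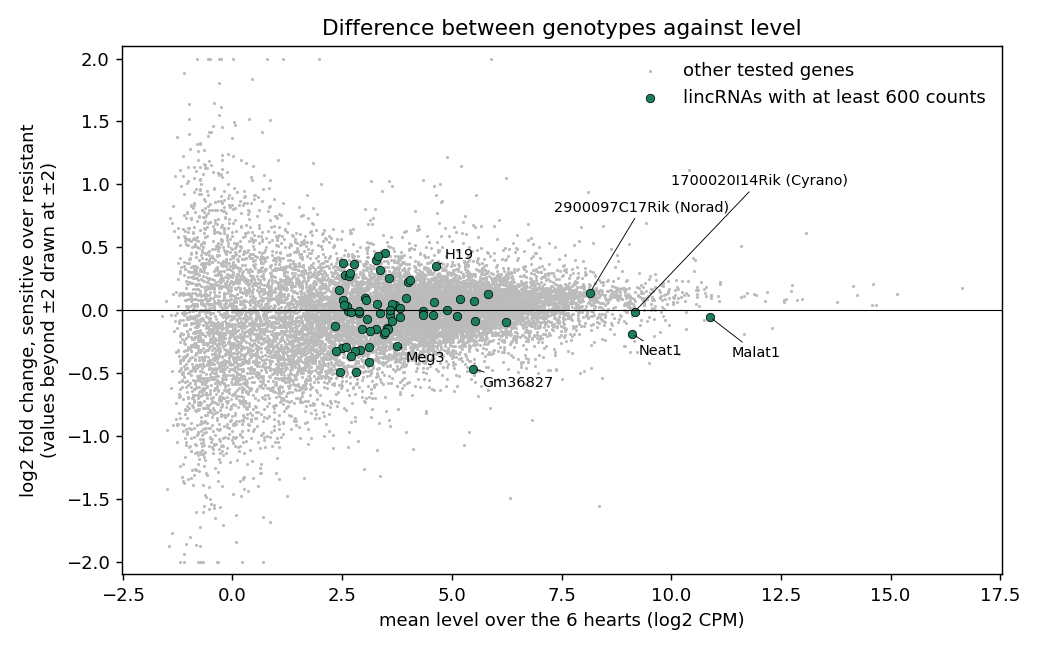
Log2 fold change of sensitive over resistant hearts (vertical axis) against the mean level in log2 CPM (horizontal axis) for every tested gene, with the 69 lincRNAs as filled circles and other genes as grey points. The lincRNAs lie between −0.49 and 0.45, and the lowest adjusted p among them is 0.0605 (Gm36827).

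A few lincRNAs held most of the counts. The 69 together had 510758 counts, and 77.4% of these fell on Malat1, Cyrano, Neat1 and Norad, with 44.3% on Malat1 alone. They also held 87.2% of the 585443 counts of all autosomal lincRNAs, though they were 1.40% of those genes. The counts of single members ran from 603 to 226419 with a median of 1234, against 3226 for autosomal protein-coding genes with at least 600 counts. Per length, the mean level ran from 0.739 to 270 RPKM with a median of 3.88, and 21 lincRNAs were over 10 RPKM.

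The share of all counts on the 69 was 0.436%, 0.422% and 0.470% in the resistant hearts, with 95% Wilson intervals of 0.433 to 0.439%, 0.420 to 0.425% and 0.467 to 0.473%. In the sensitive hearts it was 0.399%, 0.399% and 0.419%, with intervals of 0.396 to 0.402%, 0.397 to 0.402% and 0.417 to 0.422%, which cover counting error only. Every sensitive heart lay below every resistant heart (mean 0.406 ± 0.0117% against 0.443 ± 0.0243%, SD, n = 3). Counts of mitochondrially encoded genes, which are part of the total, were 25.4 ± 0.492% of all counts in sensitive hearts and 23.9 ± 0.476% in resistant hearts (SD, n = 3). Set against the total without those genes, the lincRNA shares were 0.573%, 0.552% and 0.621% in resistant hearts and 0.532%, 0.535% and 0.567% in sensitive hearts, and the groups overlapped. Without Malat1 the shares of all counts were 0.260%, 0.246% and 0.232% against 0.226%, 0.228% and 0.226%.

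The hearts differed in how many lincRNAs were highest or lowest in them. Of the 69, 21 were highest in resistant replicate 1, 4 in replicate 2 and 13 in replicate 3, and 8, 9 and 14 were highest in the 3 sensitive hearts. The lowest value fell in resistant replicates 1, 2 and 3 for 3, 18 and 13 lincRNAs, and in the sensitive replicates for 8, 17 and 10. Resistant replicate 1 was thus often the highest and seldom the lowest, and resistant replicate 2 the reverse.

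Malat1, a nuclear RNA that gathers in speckles beside splicing factors, was the most abundant lincRNA on both scales. It lies at chr19:5795690-5802672 on the minus strand (GRCm38/mm10, as are all positions here). Its level was 244, 238 and 344 RPKM in resistant hearts and 252, 249 and 294 RPKM in sensitive hearts. A single resistant heart, replicate 3, was the highest of the 6, the other 2 of its genotype were the lowest, and the groups overlapped. The log2 fold change was −0.056 (SE 0.12, edgeR adjusted p = 0.878), and 0.14 without that heart.

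Neat1, the RNA scaffold of paraspeckles, lies 22036 bases from Malat1 on the same strand, at chr19:5824708-5845478. Its level was 641, 571 and 541 CPM in resistant hearts (584 ± 51.4, SD, n = 3) and 466, 537 and 535 CPM in sensitive hearts (513 ± 40.1, SD, n = 3). The 3 sensitive hearts were the 3 lowest, 2 of them just under the lowest resistant heart. The log2 fold change of −0.19 (SE 0.08) did not pass edgeR's test (adjusted p = 0.313), and it was −0.11 without resistant replicate 1 and −0.12 without sensitive replicate 1. Averaged over its long gene, Neat1 was at 26.4 RPKM beside 270 RPKM for Malat1. Of these 2 lincRNAs of nuclear bodies edgeR and DESeq2 called 0, 1 (Neat1) had an unadjusted p under 0.05 (14.5% over all genes), and the median was −0.12.

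Cyrano (1700020I14Rik, also Oip5os1), which triggers the decay of the microRNA miR-7, had 69105 counts and lies at chr2:119594297-119607502 on the plus strand. Its level was 71.3, 66.5 and 70.8 RPKM in resistant hearts and 67.8, 68.1 and 70.9 RPKM in sensitive hearts. The hearts of the 2 genotypes were interleaved. The log2 fold change was −0.012 (SE 0.07, edgeR adjusted p = 0.955), and it ran from −0.04 to 0.0093 when a heart was left out, with a sign change for 4 of the 6.

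Cyrano acts through a long site for miR-7, shown here with the microRNA as the part of the RNA known to act. The GENCODE M21 transcript of 8300 bases holds 2 matches to the miR-7a seed. At the first site printed, at position 2952 (chr2:119602136-119602161), a further unbroken run of 13 base pairs can form with bases 11 to 23 of the microRNA, and at the other (position 762) the longest such run is 3. Capitals mark the seed match in the transcript and the seed, bases 2 to 8, in the mature microRNA from RefSeq (GRCm38.p6). A seed match alone was common, in 12.6% of autosomal lincRNAs and in 18 of the 69, taking the longest transcript of each gene.
Cyrano site 1: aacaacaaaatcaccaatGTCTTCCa
Cyrano site 2: tcaggttttttttttaatGTCTTCCa
miR-7a-5p: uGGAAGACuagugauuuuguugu

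Norad (2900097C17Rik), a cytoplasmic RNA that binds Pumilio proteins, had a biological coefficient of variation of 7.11% as fitted by edgeR. It is a single block at chr2:156388065-156392979 on the minus strand and had 33953 counts. Its level was 279, 261 and 268 CPM in resistant hearts (269 ± 9.02, SD, n = 3) and 296, 284 and 309 CPM in sensitive hearts (296 ± 12.4, SD, n = 3). Every sensitive heart lay above every resistant heart, by a small margin. This difference of 0.14 on the log2 scale (SE 0.07) did not pass edgeR's test (adjusted p = 0.378).

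Norad is known for repeats of the Pumilio binding element. The letters TGTANATA, where N is any base, occur 11 times in its transcript of 4915 bases, from position 651 to 3526, or 2.24 per kilobase. The pooled rate was 0.182 per kilobase in the 69 and 0.104 in 4911 autosomal lincRNAs. The longest GENCODE M21 transcript of each gene was searched, on the transcribed strand. Norad's own 11 matches are part of both rates, and Neat1 was next among the 69 with 4. Among those 4911, 1 transcript, that of Norad, held 11 or more. At least 1 match was found in 23 of the 69 (33.3%) and in 560 of the 4911 (11.4%), and the chosen transcripts were longer, with a median of 2251 bases against 957. The free base N was a T 6 times, a C 3 times and an A in 2 elements. The elements are given with 6 bases on either side, from chr2:156392322-156392329 for the first to chr2:156389447-156389454 for the last, with the matched letters in capitals.
Norad element 1: gtcctgTGTATATAatatga
Norad element 2: acatgcTGTAAATAcctttt
Norad element 3: tttcttTGTACATAgtgtat
Norad element 4: ctgctgTGTATATAgtggac
Norad element 5: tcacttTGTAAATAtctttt
Norad element 6: gtatacTGTATATAatggac
Norad element 7: attttgTGTATATAgttttt
Norad element 8: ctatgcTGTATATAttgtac
Norad element 9: atatatTGTACATActggac
Norad element 10: ctactaTGTATATAggggac
Norad element 11: agaaagTGTACATAacggat

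Several of the most abundant lincRNAs per length are short, or are given another kind by RefSeq. Gm10076 stood second with 119 RPKM over a length of 384 bases, and RefSeq gives it as a pseudogene (log2 fold change 0.072, edgeR adjusted p = 0.779, from 0.013 to 0.16 with single hearts left out). Gm44386 was at 68.9 RPKM, level with Cyrano at 69.2 RPKM within the spread between hearts. Its log2 fold change was 0.0018 (adjusted p = 0.996) and was negative with upper-quartile factors (−0.011) and with the filter of at least 10 counts in every heart (−0.0018), and positive with RLE factors (0.0053). It ran from −0.093 to 0.090 with single hearts left out. Gm5532 followed Norad and Gm36827 at 34.2 RPKM, with a log2 fold change of −0.10 (edgeR adjusted p = 0.663). This was −0.013 without resistant replicate 3 and −0.019 without sensitive replicate 2.

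RefSeq gives Lsmem2, which codes for a single-pass membrane protein, as protein-coding, and it was at 29.7 RPKM. Its highest heart was resistant replicate 1 (39.3 RPKM), the other 5 were between 24.0 and 30.3 RPKM, and the log2 fold change of −0.19 (edgeR adjusted p = 0.639) was 0.0032 without that heart. The other 3 of the 12 most abundant per length were 1810058I24Rik (20.2 RPKM, log2 fold change 0.13), Tmem250-ps (18.7 RPKM, −0.08) and AW112010 (13.9 to 19.5 RPKM, 0.04). Of these, 1810058I24Rik and Tmem250-ps are protein-coding in RefSeq, and Tmem250-ps had the lowest biological coefficient of variation fitted by edgeR among the 69 (7.10%). Its log2 fold change was −0.044 without sensitive replicate 2. AW112010 took both signs as single hearts were left out, from −0.07 to 0.17.

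**Figure D2:**
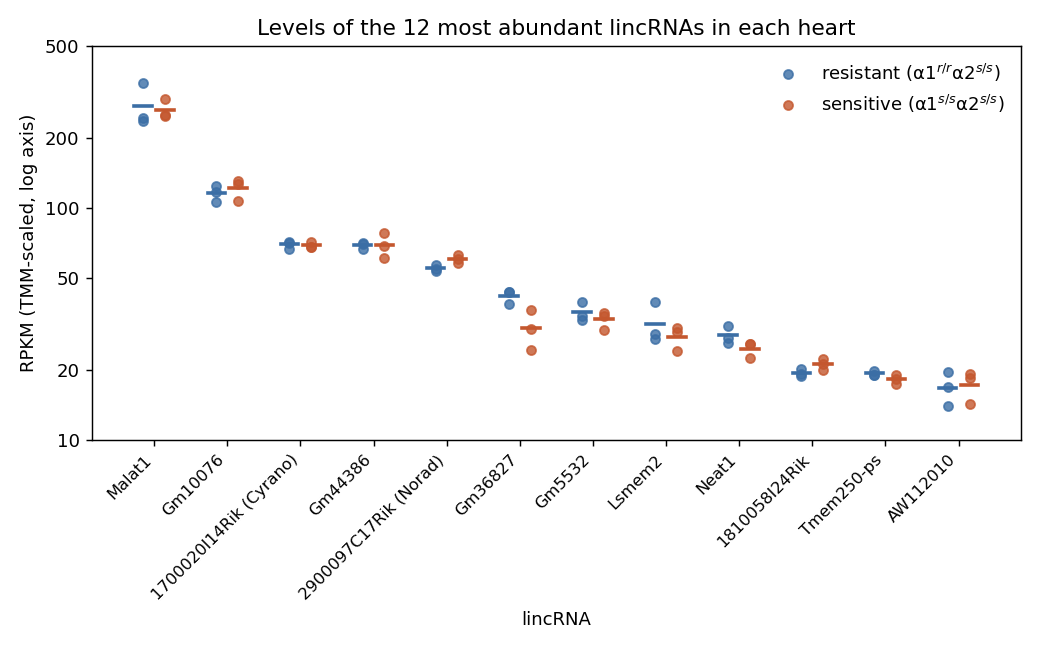
Level in RPKM (vertical log axis) of the 12 lincRNAs with the highest mean (horizontal axis), with a point for each heart and a line at the mean of each genotype (3 hearts). Malat1 is highest at 270 RPKM, AW112010 is the lowest of these with points from 13.9 to 19.5 RPKM, and the points of the genotypes lie apart in Norad, Gm36827, Neat1 and Tmem250-ps.

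The label lincRNA was set against 2 annotations. GENCODE M21 gives the same coordinates for 66 of the 69, and it lists 1, Gm17552, as antisense. RefSeq has a gene for 55, of which 47 are lncRNA, 6 protein-coding, 1 a pseudogene and 1 a transcribed pseudogene. Among the 47, edgeR called 0 and DESeq2 1, and 8 had an unadjusted p under 0.05 (1.44%, 3.89% and 14.5% over all genes). The span of 32 of the 69 overlapped another gene, for 10 a protein-coding one, and exons overlapped those of another gene in 17. Among the 37 that overlapped no gene, 4 had an unadjusted p under 0.05 (14.5% over all genes). The strand setting of the counting is not given in the sources used here, so counts in shared exons cannot be assigned to a strand.

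Gm36827 had the smallest p of the 69. It lies at chr10:56970329-56982232 on the minus strand, is lncRNA in RefSeq and had 5424 counts and a level of 35.9 RPKM. Its level was 48.2, 54.0 and 54.0 CPM in resistant hearts (52.1 ± 3.36, SD, n = 3) and 45.1, 30.5 and 37.4 CPM in sensitive hearts (37.7 ± 7.29, SD, n = 3). All 3 sensitive hearts were below all 3 resistant hearts, replicate 1 by the smallest margin. The log2 fold change of −0.47 (SE 0.11) missed the threshold in edgeR (adjusted p = 0.0605). The adjusted p was 0.0114 by DESeq2 and 0.000143 without the filter on low counts, in a range of 0.000143 to 0.0607 over the 7 alternatives that kept all hearts. Without sensitive replicate 1 it was 0.0193 with a log2 fold change of −0.61, and over the 6 hearts left out in turn it ran from 0.0193 to 0.180.

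The tested genes nearest to Gm36827 were looked up after its values were seen. The closest, Hsf2, which encodes a heat shock transcription factor, is 504153 bases away (log2 fold change 0.05). Gja1, which encodes the gap junction protein connexin 43, is 567816 bases away on the other side (−0.33, edgeR adjusted p = 0.0814). Beyond it, at 741640 bases, Tbc1d32, a gene needed for cilia, fell (−0.58, edgeR adjusted p = 0.0359). With single hearts left out, the adjusted p of Tbc1d32 ran from 0.0449 to 0.127 and passed in 1 case, without sensitive replicate 1. Serinc1 (0.06), Pkib (−0.07) and Msl3l2 (0.14) completed the 3 nearest tested genes on each side. None of these 3 passed edgeR's test (adjusted p of 0.724, 0.959 and 0.918).

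**Figure D3:**
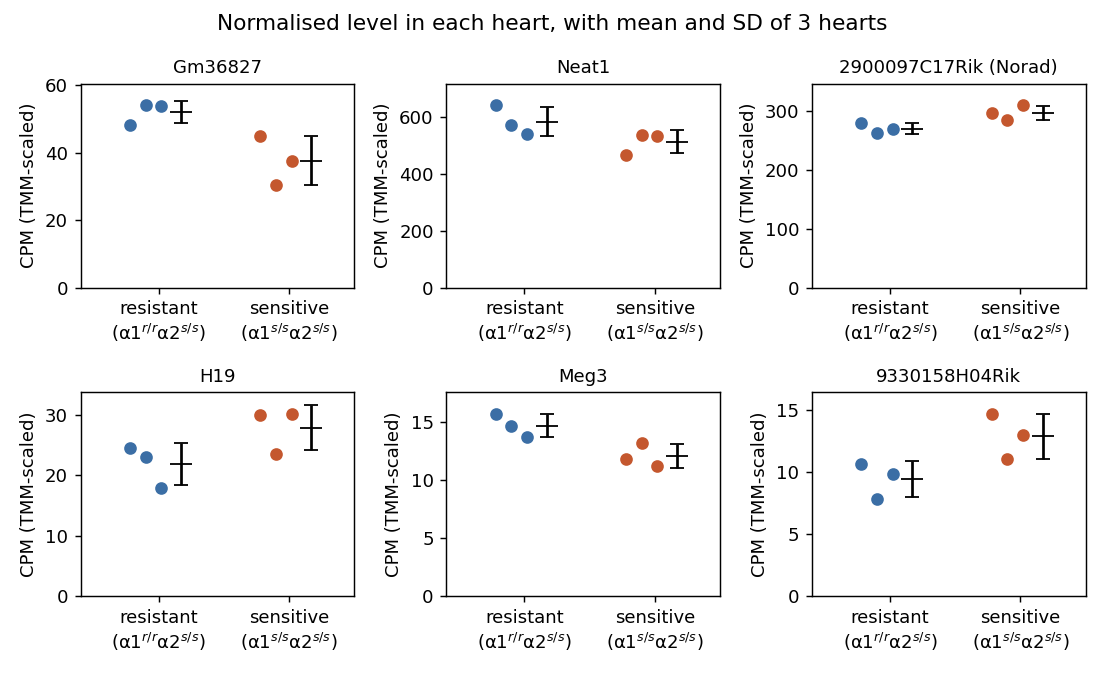
Normalised level in CPM (vertical axis) in each heart of both genotypes (horizontal axis) for 6 lincRNAs, with 1 point per heart and bars for the mean and SD of 3 hearts. The genotypes do not overlap in Gm36827, Neat1, Norad, Meg3 and 9330158H04Rik and overlap in H19, and none of the 6 passed edgeR's test (adjusted p from 0.0605 for Gm36827 to 0.378 for Norad).

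H19 and Meg3 are expressed from the maternal chromosome of 2 imprinted loci, and their values lay on opposite sides of 0. H19, a growth-restricting RNA high in fetal tissue, lies at chr7:142575529-142578143 on the minus strand and was at 10.1 RPKM. Its level was 24.5, 23.1 and 17.9 CPM in resistant hearts and 29.9, 23.6 and 30.1 CPM in sensitive hearts. The genotypes overlapped, since sensitive replicate 2 was below resistant replicate 1. The log2 fold change was 0.35 (SE 0.13, edgeR adjusted p = 0.208), and 0.23 without resistant replicate 3. Its paternally expressed neighbour, the growth factor gene Igf2, had 127 counts in all (0.51, adjusted p = 0.670).

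Meg3, the maternal RNA of the Dlk1 and Dio3 locus, lies at chr12:109541001-109571726 on the plus strand and was the least abundant of the 69 per length (0.739 RPKM). Its level was 15.7, 14.6 and 13.7 CPM in resistant hearts and 11.8, 13.2 and 11.2 CPM in sensitive hearts. Every sensitive heart was below every resistant heart. On the log2 scale the difference was −0.28 (SE 0.12, edgeR adjusted p = 0.298). Rian, a noncoding RNA of the same locus that the table lists under another biotype (1112 counts), had −0.46 (adjusted p = 0.197). Of 8 imprinted noncoding RNAs, 6 were tested, edgeR and DESeq2 called 0, 4 had an unadjusted p under 0.05 (14.5% over all genes), and the median was −0.21.

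Some lincRNAs carry a small RNA inside. A microRNA hairpin lies within 4 of the 69 and a snoRNA or scaRNA within 2, among them Snhg6, the host of Snord87. The counts are of the long RNA and say nothing of the level of the small one. H19 holds miR-675, Meg3 miR-770, 2900076A07Rik miR-1839, and 6720427I07Rik let-7d, a member of the let-7 family that restrains growth genes. The mature sequences from RefSeq (GRCm38.p6) show what each host can give rise to, with the seed (bases 2 to 8) in capitals, and no seed is shared among them.
H19, miR-675-5p: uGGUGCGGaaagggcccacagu
H19, miR-675-3p: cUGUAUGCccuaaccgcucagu
Meg3, miR-770-5p: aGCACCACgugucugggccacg
Meg3, miR-770-3p: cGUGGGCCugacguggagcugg
2900076A07Rik, miR-1839-5p: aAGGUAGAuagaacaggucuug
6720427I07Rik, let-7d-5p: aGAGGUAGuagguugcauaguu
6720427I07Rik, let-7d-3p: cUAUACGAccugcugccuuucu

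Among these hosts, 6720427I07Rik was at 7.11, 5.92 and 4.77 CPM in resistant hearts and 8.09, 8.05 and 6.90 CPM in sensitive hearts. The genotypes overlapped by 1 heart on each side, and the log2 fold change was 0.37 (SE 0.18, edgeR adjusted p = 0.368), and 0.24 without resistant replicate 3. In 2900076A07Rik it was 0.06 (adjusted p = 0.828). Snhg6 had 0.04 (adjusted p = 0.955) and ran from −0.10 to 0.28 with single hearts left out. Over 17 tested of 20 listed snoRNA hosts of any biotype, edgeR called 0 and the median was 0.04. Of the 17, 1 had an unadjusted p under 0.05 (Epb41l4aos), against 14.5% over all genes. DESeq2 called 0 of them but gave some, Epb41l4aos included, no adjusted p. A separate list held 11 other microRNA hosts, none of them among the 69, and 7 were tested. Of the 7, edgeR called 0, 0 had an unadjusted p under 0.05 (14.5% over all genes), and the median was −0.015. DESeq2 also called 0, but gave Mir17hg, Mir133a-1hg, Carmn and Mir155hg no adjusted p.

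Of noncoding RNAs listed for a role in the heart, 1 was among the 69. Bvht (Braveheart), needed for the commitment of stem cells to the cardiac lineage in culture, had 691 counts and a level of 8.23 RPKM. Its level was 5.49, 6.45 and 4.82 CPM in resistant hearts and 5.71, 6.79 and 5.24 CPM in sensitive hearts. The genotypes were interleaved. On the log2 scale the difference was 0.08 (SE 0.19, edgeR adjusted p = 0.890), between −0.025 and 0.20 with single hearts left out. Over 3 tested of 5 listed heart RNAs, edgeR and DESeq2 called 0, 0 had an unadjusted p under 0.05, and the median was 0.08. Mhrt, the antisense RNA of the myosin gene Myh7 and the most abundant of these, has another biotype.

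The other lincRNAs with small p were at lower levels, under 3 RPKM except A430046D13Rik at 8.27 RPKM. Those with higher values in sensitive hearts included AC133498.1, at 8.31, 7.50 and 9.75 CPM against 10.9, 12.4 and 11.2 CPM in sensitive hearts. Its genotypes did not overlap, and the log2 fold change of 0.43 (SE 0.14) had an edgeR adjusted p of 0.164, the second lowest of the 69. 9330158H04Rik was at 10.6, 7.83 and 9.90 CPM against 14.7, 11.0 and 13.0 CPM in sensitive hearts (log2 fold change 0.45, SE 0.15, adjusted p = 0.175). Its exons overlap those of Chrm2, the muscarinic receptor gene of the heart, on the other strand, and Chrm2 itself had −0.02 (adjusted p = 0.925). Gdap10 lies inside Nampt, an enzyme gene of NAD synthesis, on the same strand, and had 0.40 (adjusted p = 0.287) beside 0.29 for Nampt (edgeR adjusted p = 0.0841, DESeq2 0.00639). Without sensitive replicate 3 the value of Gdap10 was 0.23. In A430046D13Rik the difference was 0.24 (adjusted p = 0.364).

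Those with lower values in sensitive hearts were 4632404H12Rik, C030037D09Rik and Gm21781, beside Gm36827, Neat1 and Meg3. C030037D09Rik was at 6.97, 7.02 and 5.28 CPM in resistant hearts and 4.52, 4.47 and 4.72 CPM in sensitive hearts. No heart of one genotype reached into the other, and the log2 fold change was −0.49 (SE 0.19, edgeR adjusted p = 0.234). Gm21781 had the lowest value of the 69, −0.49 as well (adjusted p = 0.265), which was −0.30 without sensitive replicate 3, and 4632404H12Rik had −0.41 (adjusted p = 0.235). In both, all sensitive hearts were below all resistant hearts.

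Gm26917 had the highest biological coefficient of variation fitted by edgeR among the 69 (19.9%, a value moderated towards that of other genes). Its level was 12.2 ± 5.73 CPM in resistant and 12.6 ± 1.92 CPM in sensitive hearts (SD, n = 3). It had 174, 200 and 374 counts in resistant hearts and 210, 253 and 271 counts in sensitive hearts. As with Malat1, resistant replicate 3 was the highest and the other 2 of its genotype the lowest. A log2 fold change of 0.05 was fitted (edgeR adjusted p = 0.952), and 0.50 without that heart. Of 18 broadly expressed noncoding RNAs listed, 12 were tested, edgeR called 0, 1 had an unadjusted p under 0.05 (14.5% over all genes), and the median was 0.09. DESeq2 also called 0, but gave 2310001H17Rik, Epb41l4aos, Dnm3os, Pvt1 and Crnde no adjusted p.

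At the limit of 600 counts, the 3 genes just inside were 5430431A17Rik, C130083M11Rik and 1110019D14Rik with 647, 614 and 603 counts. The 3 just outside were Gm28979 with 583 counts, and 4930480K23Rik and 2310039L15Rik with 573 each. Below the limit, edgeR called 1 autosomal lincRNA, BB123696, named here after its values were seen. It passed the filter on low counts only through its counts in the sensitive hearts, and DESeq2 gave it no adjusted p. It had 1, 3 and 4 counts in resistant hearts and 25, 24 and 23 counts in sensitive hearts (edgeR adjusted p = 0.0125). The adjusted p was 0.0738 without resistant replicate 1 and 0.0572 without resistant replicate 2, and in the other 4 cases of a heart left out it was at most 0.0434.

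The 69 lie on all 19 autosomes. The median distance to the nearest protein-coding gene was 7665 bases, against 35093 for all autosomal lincRNAs, and ran from 0 to 504153 bases, the latter for Gm36827. In 12 of the 69 (17.4%), a protein-coding gene starts within 1 kb on the opposite strand, against 317 of the 4915 autosomal lincRNAs (6.45%). All 12 of these neighbours were tested, edgeR and DESeq2 called 0, and 1 had an unadjusted p under 0.05 (14.5% over all genes). Their log2 fold changes ran from −0.12 to 0.32. The sign was that of the lincRNA in 7 of the 12. Of the nearest protein-coding genes, 58 were tested, edgeR called 0, 5 had an unadjusted p under 0.05 (14.5% over all genes) and DESeq2 called 2 (3.89%). The lowest edgeR adjusted p among these was 0.0542, for Hes1, a transcription factor gene 42954 bases from 4632428C04Rik. At any distance, 54 genes that hold the nearest start on the opposite strand were tested and edgeR called 1 (1.44% over all genes). This was Ehhadh, an enzyme gene of peroxisomes that starts 6511 bases from 1300002E11Rik. Ehhadh rose (0.65, edgeR adjusted p = 0.0468, DESeq2 0.00309), while 1300002E11Rik had 0.035 (adjusted p = 0.954). This call held in 1 of 6 cases of a heart left out, without sensitive replicate 2, and did not hold with upper-quartile factors (0.0526) or the robust prior (0.125). Some members lie close to each other, with Malat1 and Neat1 22036, 2310040G24Rik and Gm44386 25664, and Prr33 and H19 68758 bases apart.

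Members on chromosome 18, such as Bvht, were left out of the promoter search, a limit not placed on the set of all promoters. A promoter sequence in RefSeq (GRCm38.p6), from 250 bases before to 50 after the start, was matched for 44 of the 69. On either strand, TATAAA was found in 22.7% of them and in 14.2% of all 27025 promoters. CCAAT was found in 38.6% against 37.9%, and GGGCGG in 31.8% against 35.9%. CTA followed after any 4 bases by TAG was found in 6.82% (3 promoters) against 3.70%. Sites bound by the MEF2 factors of muscle have these outer letters, but the 4 bases between were left free here. AGATAA, which factors of the GATA family bind, was found in 20.5% (9 promoters) against 11.4%. The median GC content was 53.0% against 52.7%. These are matches of letters in a window, and binding was not measured.

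Of the genes at the loci of well-known lincRNAs, 11 of 16 were tested. EdgeR and DESeq2 each called 1 (1.44% and 3.89% over all genes), and 2 had an unadjusted p under 0.05 (14.5%). Hand2, a transcription factor gene of heart development beside a noncoding RNA of its own, rose in sensitive hearts (log2 fold change 0.92, adjusted p = 0.000626). It passed with each heart left out (adjusted p from 0.000832 to 0.00391), and the median of the 11 was 0.04.

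Many lincRNAs are made in some cell types only, and in whole heart RNA fewer cells of a type and less RNA per cell cannot be told apart. The hearts were rich in cardiomyocyte RNA, led by Myh6, with a sum over 9 marker genes of 56115, 51517 and 65542 CPM in resistant hearts and 59522, 57724 and 62625 CPM in sensitive hearts. The median log2 fold change of these 9 was 0.08, edgeR and DESeq2 called 0, and 0 had an unadjusted p under 0.05 (14.5% over all genes). As with Malat1 and Gm26917, resistant replicate 3 had the highest sum.

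Markers of macrophages, smooth muscle and atria lay below 0, as did Gm36827, Neat1 and Meg3. All 7 macrophage markers were below 0 (median −0.43), with sums of 412, 535 and 341 CPM in resistant hearts and 368, 351 and 297 CPM in sensitive hearts, and Lyz2 was the most abundant. Of the 7, edgeR called 0 and DESeq2 2, and 3 had an unadjusted p under 0.05, where over all genes the shares are 1.44%, 3.89% and 14.5%. All 8 markers of smooth muscle and pericytes, led by Rgs5, were below 0 (median −0.29), with sums of 1460, 1403 and 1396 CPM against 1386, 1397 and 1239 CPM in sensitive hearts. Of these 8, edgeR called 0 and DESeq2 1 (3.89% over all genes), and 4 had an unadjusted p under 0.05 (14.5%).

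All 6 atrial markers were below 0 (median −0.42), led by Nppa, with sums of 239, 296 and 193 CPM against 206, 172 and 196 CPM in sensitive hearts. Of these 6, edgeR called 0 and DESeq2 1 (3.89% over all genes), and 3 had an unadjusted p under 0.05 (14.5%). Fibroblast markers, led by Dcn, had a median of −0.20 over 8 genes, with sums of 1228, 1331 and 1131 CPM against 1160, 1155 and 1007 CPM in sensitive hearts. Here 6 lay below 0 and 2 above it, Dcn itself (0.06) and Pdgfra (0.14). Of these 8 genes, edgeR called 0 and DESeq2 1, and 4 had an unadjusted p under 0.05, beside the same shares over all genes. In each of these 4 cell types the summed levels of the genotypes overlapped, and their part in the lincRNA values was not tested.

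The remaining marker lists were smaller or less uniform. Endothelial genes had a median of −0.0051 over 8, and edgeR called 1, the fatty acid carrier gene Fabp4, which rose (0.39, adjusted p = 0.0358). Its adjusted p ran from 0.00996 to 0.152 with single hearts left out and passed in 1 case, without resistant replicate 2. Of these 8 genes DESeq2 also called 1, and 2 had an unadjusted p under 0.05. Over all genes the shares are 1.44% by edgeR, 3.89% by DESeq2 and 14.5% unadjusted. Kdr, a receptor gene for vascular endothelial growth factor named here after its values were seen, had −0.50 (edgeR adjusted p = 0.0694). The median was −0.59 over 4 tested lymphocyte markers, 0.71 over 4 for adipocytes, 0.31 over 4 for skeletal muscle, 0.66 over 5 for erythroid cells and −0.11 over 3 for neurons and Schwann cells. Erythroid sums were 954, 1272 and 536 CPM in resistant hearts and 796, 3187 and 401 CPM in sensitive hearts, so that sensitive replicate 2 stood above all others and the other 2 sensitive hearts lay within or below the resistant ones. Adipocyte sums were 4.34, 5.21 and 3.17 CPM against 11.7, 3.68 and 3.79 CPM in sensitive hearts, where replicate 1 alone was above the resistant ones. In the last 5 lists edgeR and DESeq2 called 0, and 2, 1, 1, 0 and 0 genes had an unadjusted p under 0.05 (14.5% over all genes). Markers with 0 counts in every heart were Ucp1 of brown fat, Myh4 of fast skeletal muscle and Th of sympathetic neurons. All other genes of the adipocyte, skeletal muscle and neuron lists had counts, if few in some, such as Lep with 2 in all. Among them, Cfd had 407 counts, Mylpf 103, Tnnt3 58 and Dbh 263. The 0 counts of single markers therefore do not show that a cell type was absent.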

How the data were processed

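Read counts per gene of 6 hearts were deposited by the authors as raw counts, not normalised, with a gene length in bases (a value of another kind) also deposited. The submitters' processing notes name fastp, STAR and featureCounts and the build mm10. Their versions, the strand setting and the library selection are not given in the sources used here. The authors' other table, with baseMean, log2 fold change, standard error, statistic, p and adjusted p from DESeq2, was not used.

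Counts were analysed in R 4.3.3 with edgeR 4.0.16 (TMM factors, filterByExpr with a minimum count of 10 and a minimum total of 15, quasi-likelihood test, two-sided, Benjamini-Hochberg adjustment over all tested genes, threshold 0.05). The standard error was the size of the log2 fold change divided by the square root of F. RPKM is TMM-scaled CPM per kilobase of the deposited length. Gene models and transcripts (the longest of each gene for sequence searches) are from GENCODE M21, promoters and microRNAs from RefSeq GRCm38.p6. Intervals of shares are Wilson intervals at 95%. The steps were tested on simulated data.

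The genes named were the 12 with the highest RPKM, the 5 with the most counts, any called, the 6 with the smallest p in each direction, those with the largest and the smallest dispersion fitted by edgeR, 3 on each side of the limit, and members of the gene lists. Members and lists were chosen with earlier results of these data known. Alternatives were RLE or upper-quartile factors, no filter, at least 10 counts in every heart, no mitochondrial and globin genes, the robust prior, DESeq2 1.42.0, each heart left out, a threshold of 0.1, limits of 300 or 1200 counts, no overlapping genes, totals without mitochondrial genes, no Malat1, and, chosen after seeing the data, lncRNA in RefSeq.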

Additional observations from a re-analysis of the deposited data

How the results depend on the processing

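The number of lincRNAs called by edgeR was 0 of 69 and stayed 0 with RLE or upper-quartile factors, at least 10 counts in every heart, no mitochondrial and globin genes, the robust prior, limits of 300 (125 lincRNAs) or 1200 counts (36), no overlap with another gene (37) and, chosen after seeing the data, lncRNA in RefSeq (47). In these 4 other sets 15, 5, 4 and 8 had an unadjusted p under 0.05, where the share over all genes is 14.5%. The number was 1 without the filter, 1 by DESeq2 and 1 at an adjusted p under 0.1, and 0 to 1 with single hearts left out. Over all genes the 214 calls became 618 without the filter and 409 by DESeq2, and leaving out a heart gave 80 to 158. The cause of the rise without the filter was not tested. The median log2 fold change of the lincRNAs (−0.011) ran from −0.056 to 0.024 with single hearts left out. It was 0.0018 over the 37 without overlap with another gene.

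The mean share of counts was 0.443% in resistant hearts, 0.582% with mitochondrial genes out of the total and 0.246% without Malat1, and 0.406%, 0.545% and 0.227% in sensitive hearts, by construction of the totals.

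Over 28 named lincRNAs and 364 settings, 338 kept direction and side of the threshold, 3 passed it (all Gm36827) and 23 changed sign, in 10 lincRNAs whose log2 fold change was at most 0.19 in size. Gm44386 was −0.011 with upper-quartile factors and −0.0018 with at least 10 counts in every heart. With single hearts left out the ranges were −0.15 to 0.14 for Malat1, −0.040 to 0.0093 for 1700020I14Rik, −0.093 to 0.090 for Gm44386, −0.069 to 0.17 for AW112010, −0.17 to 0.50 for Gm26917, −0.28 to 0.0032 for Lsmem2, −0.10 to 0.28 for Snhg6, −0.025 to 0.20 for Bvht, −0.064 to 0.31 for 5430431A17Rik and −0.23 to 0.034 for 1110019D14Rik. The cause of these changes was not tested.

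No paired analysis was possible because the labels give no pairing of hearts between genotypes. With 3 hearts a genotype, standard errors of 0.07 to 0.24 limit what can be seen.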
